A study of Mus musculus with 14 samples.

Results

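The 10 genes that the gut lining and the liver use in the acute phase and complement responses and that were followed here through all 4 groups of the study are the serum amyloid A genes Saa1, Saa2 and Saa3, the iron-withholding genes Lcn2 and Ltf, the complement genes C3, Cfb and Cfi, the complement inhibitor Cd55, and Pigr, the receptor that carries IgA into the lumen. They were chosen by symbol, with earlier results of these data known, and all 10 were found among the 37680 genes of the deposited count table. The study sequenced poly(A) RNA from colonic crypt epithelium that EDTA had freed from the underlying tissue of the whole colon of adult mice. Wild-type (WT) mice were compared with mice labelled Smad4 knockout (Smad4 KO), in which floxed Smad4 is deleted by a tamoxifen-inducible Cre under the Villin promoter, so that the deletion is aimed at epithelial cells of the gut. Either genotype received plain drinking water or 2.5% dextran sulphate sodium (DSS), a detergent-like polymer that injures the colon lining, for 3 d. There were 4 WT and 4 Smad4 KO libraries on water, and 3 WT and 3 Smad4 KO libraries after DSS. The labels do not say whether replicates were separate mice, so p-values measure only the spread between these libraries.

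Acute phase proteins are secreted within hours of injury or infection, classically by the liver on command of IL-6 and IL-1, and several are also made by mucosal epithelium. Serum amyloid A proteins bind lipids and retinol and coat bacteria, lipocalin 2 (Lcn2) captures bacterial siderophores, and lactoferrin (Ltf) binds iron directly. In complement, C3 is the protein that is cleaved to tag surfaces, and factor B (Cfb) supplies the protease of the alternative pathway that cleaves more C3. Factor I (Cfi) destroys activated C3, and decay-accelerating factor (Cd55) takes the cleaving enzymes apart on the cell's own surface. The Smad4 protein carries TGF-β and BMP signals to the nucleus.

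Smad4 was first checked in every library, as counts per 1000000 counts (CPM, scaled by the TMM method over the 14 libraries). WT libraries had 133 ± 18.5 CPM on water (SD, n = 4) and 176 ± 6.13 CPM after DSS (SD, n = 3), and the Smad4 KO libraries had 42.3 ± 1.79 CPM after DSS (SD, n = 3). On water, 3 of the 4 libraries labelled Smad4 KO had 39.6 ± 6.26 CPM (SD, n = 3), while the library labelled Smad4 KO on water, replicate 1, had 158.0 CPM, at the WT level. It was kept under its label, and the main values that use it are given with and without it. Legends of the paper's RNA figures give 3 replicates for Smad4 KO on water, while 4 are deposited, and do not name them. Total counts ran from 12882827 to 26087231 per library, so 1 count was worth 0.037 to 0.11 CPM. Mitochondrial genes took 4.05% to 8.23% of counts in 11 libraries and 21.4% to 32.8% in 3, which were WT replicates 3 and 4 and Smad4 KO replicate 4 on water. Library names also carry letter prefixes of unstated meaning, and no prefix was shared by Smad4 KO libraries on water and after DSS. Epithelial markers (Epcam, keratins, Cdx1, Cdx2 and others, 13 genes) were all detected and summed to 25108 to 36482 CPM, against 17.6 to 55.0 CPM for 10 fibroblast markers and 10.6 to 21.3 CPM for 12 macrophage markers.

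The 3 serum amyloid genes lie together on chromosome 7 of mm9, and Saa1 and Saa2 are near copies whose levels have to be told apart by sequence. Saa3 (ENSMUSG00000040026) spans 53967368 to 53971046 on the minus strand, Saa1 (ENSMUSG00000074115) spans 53995871 to 53998350 on the minus strand, and Saa2 (ENSMUSG00000057465) spans 54007203 to 54009684 on the plus strand. Saa1 and Saa2 therefore point away from each other, with 8852 bases between their 5′ ends. Their coding sequences were identical at 351 of 369 bases (95.1%), against 74.3% for Saa1 and Saa3. The stretch of the coding sequence from base 90 to base 149 holds 7 of the 18 differences, and is shown because reads across it name their gene. Capitals mark the bases that differ (GENCODE M1 transcripts, mm9).
Saa1: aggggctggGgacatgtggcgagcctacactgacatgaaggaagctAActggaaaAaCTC
Saa2: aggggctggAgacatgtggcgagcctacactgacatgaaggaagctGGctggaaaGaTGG
No run of identical coding bases between them was longer than 73, and no window of 150 bases, the length of 1 read, of the Saa1 or Saa2 transcript occurred in another protein-coding transcript.

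The bases before the start site are shown for genes whose levels are compared below. RefSeq promoters (GRCm38.p6) were at hand for 8 of the 10 genes, all but Cfb and Cfi. In the 250 bases before the start, the letters TTGCNNAA, read on either strand, the core of sites bound by C/EBP factors, which drive acute phase genes in liver, were present in 6 of these 8 genes, and in 9.56% of all 32851 promoters in the table. The 6 were Saa1, Saa2, Saa3, Lcn2, Ltf and C3, and the 2 without the letters were Cd55 and Pigr. The κB letters searched were GGGRNWYYCC, where R is A or G, W is A or T and Y is C or T. No exact match to them, to the STAT letters TTCNNNGAA or to the SMAD box GTCTAGAC was found in these 8 windows. Such matches occurred in 3.90%, 7.02% and 0.17% of all promoters. A match is a description of the letters and not evidence of binding, and the lack of an exact match does not show that a site is absent. Capitals mark the C/EBP letters, 5′ to 3′ on the gene's strand, ending 1 base before the start.
Saa1 (chr7:46742981-46743230, minus strand): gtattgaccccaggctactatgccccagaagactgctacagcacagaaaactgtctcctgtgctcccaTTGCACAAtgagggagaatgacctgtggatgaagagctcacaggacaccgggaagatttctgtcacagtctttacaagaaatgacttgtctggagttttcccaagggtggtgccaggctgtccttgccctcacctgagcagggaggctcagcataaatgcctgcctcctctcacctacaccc
Saa2 (chr7:46751583-46751832, plus strand): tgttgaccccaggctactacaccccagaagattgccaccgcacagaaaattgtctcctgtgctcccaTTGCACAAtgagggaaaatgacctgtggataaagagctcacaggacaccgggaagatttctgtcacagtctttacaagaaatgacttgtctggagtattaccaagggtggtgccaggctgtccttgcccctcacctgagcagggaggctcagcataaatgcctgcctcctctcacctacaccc
Lcn2 (chr2:32387740-32387989, minus strand): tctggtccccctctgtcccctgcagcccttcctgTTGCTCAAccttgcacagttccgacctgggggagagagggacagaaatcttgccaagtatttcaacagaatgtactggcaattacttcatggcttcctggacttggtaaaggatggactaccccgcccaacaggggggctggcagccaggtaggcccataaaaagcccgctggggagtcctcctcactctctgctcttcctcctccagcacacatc
Ltf (chr9:111019042-111019291, plus strand): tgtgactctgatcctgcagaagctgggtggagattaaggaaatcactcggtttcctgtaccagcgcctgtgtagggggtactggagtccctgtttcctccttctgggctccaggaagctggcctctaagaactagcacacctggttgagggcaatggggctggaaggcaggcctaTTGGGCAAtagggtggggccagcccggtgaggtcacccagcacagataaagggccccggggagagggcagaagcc
C3 (chr17:57228137-57228386, minus strand): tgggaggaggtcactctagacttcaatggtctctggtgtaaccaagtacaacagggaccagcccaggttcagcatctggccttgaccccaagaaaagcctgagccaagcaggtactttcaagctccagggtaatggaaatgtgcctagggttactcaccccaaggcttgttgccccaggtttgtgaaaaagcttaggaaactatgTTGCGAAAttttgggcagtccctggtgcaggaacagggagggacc
The Saa1 and Saa2 promoters were identical at 238 of 249 aligned bases (95.6%), with the C/EBP letters in the same place to within 1 base, 182 to 175 and 183 to 176 bases before the start.

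Pigr and Saa1 were by far the most abundant of the genes, and Cfi was close to absent. Per kilobase of exon, on water in WT, the mean level was 1849 ± 317 CPM for Pigr and 1556 ± 356 CPM for Saa1 (SD, n = 4). Saa3 followed at 10.4 ± 4.58, C3 at 6.79 ± 2.40, Cd55 at 4.64 ± 1.30, Lcn2 at 2.96 ± 0.73, Ltf at 1.93 ± 0.71, Saa2 at 1.38 ± 0.38 and Cfb at 1.12 ± 0.79 CPM per kilobase (SD, n = 4). Neighbours in this order overlapped between libraries except Saa1 and Saa3, and Cfb and Cfi. The length used joins all annotated exons of a gene, 2302 bases for Lcn2 and 4853 for Cd55. Their transcripts with the longest coding sequence have 915 and 2533 bases. The order of the middle genes can therefore change with the length used. The length of Cfb also holds bases shared with Gm20547, as described below. After DSS in Smad4 KO the order of the middle genes was another: C3 stood at 20.4 ± 1.48, Saa3 at 17.4 ± 6.42, Lcn2 at 9.63 ± 2.29, Ltf at 8.02 ± 1.06 and Cd55 at 4.77 ± 0.42 CPM per kilobase (SD, n = 3). The 10 genes together held 0.562% to 0.910% of each library's counts, and Pigr made up 80.7% to 91.9% of that. The near copies Saa1 and Saa2 stood far apart: Saa1 had 543 to 2438 times the counts of Saa2 in every library (median 895), although Saa2 was seen in each library with 4 to 30 counts.

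**Figure D1:**
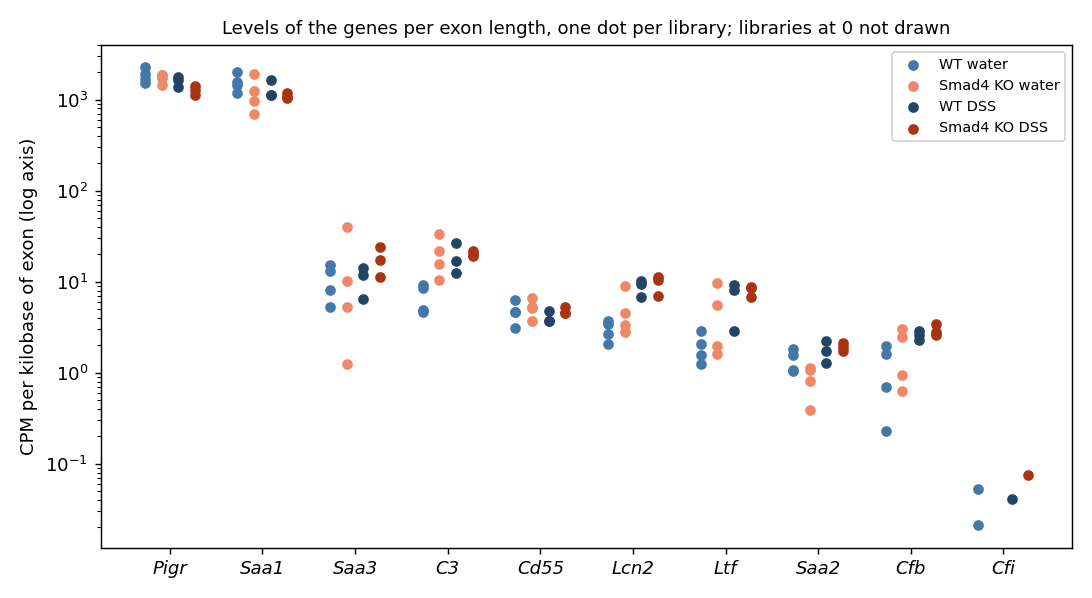
Level of each gene in CPM per kilobase of exon (log axis), with 1 dot per library, coloured by group; libraries at 0 are not drawn. Pigr and Saa1 lie far above every other gene in every library, and Cfi shows as a few dots at the bottom from 1 to 3 counts.

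The comparison of DSS with water in WT mice asked what the injury itself does, and 4 of the genes lay apart between these groups. Lcn2, Ltf, C3 and Cfb were higher in all 3 WT libraries after DSS than in all 4 on water, by 2.97-, 3.49-, 2.76- and 2.23-fold, while the serum amyloid genes, Cd55 and Pigr overlapped between the groups. None of the 9 genes tested passed edgeR's adjusted threshold of 0.05, and no gene in the table did (0% of 14407; 25.1% had an unadjusted p below 0.05). Without adjustment, 4 of the 9 were below 0.05, and DESeq2, which called 1789 genes, called 3 of them. Groups that did not overlap, higher after DSS, were seen in 13.2% of all genes and in 4 of these 9, and lower ones in 11.9% of all genes and in none of these. The median log2 fold change was 0.31 over the 9 genes and -0.02 over all genes tested. Because the genes were chosen with earlier results of these data known, the contrast with all genes is a description and not a test.

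Lcn2 (ENSMUSG00000026822, chromosome 2, 32240153 to 32243317, minus strand) had 4.77, 8.51, 6.19 and 7.80 CPM in the WT libraries on water. After DSS it had 15.7, 23.5 and 21.5 CPM, so the lowest treated library was well above the highest untreated one. The log2 fold change was 1.57 (SE 0.24, edgeR adjusted p = 0.0606; DESeq2 adjusted p = 1.23e-06).
Ltf (ENSMUSG00000032496, chromosome 9, 110921796 to 110945270, plus strand) had 3.40, 7.85, 5.62 and 4.28 CPM on water and 7.95, 22.3 and 25.4 CPM after DSS. Its replicate 1 after DSS was just above the highest library on water, and the other two were far above. For Ltf the log2 fold change was 1.80 (SE 0.40, edgeR adjusted p = 0.0852; DESeq2 adjusted p = 0.00106).

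C3 (ENSMUSG00000024164, chromosome 17, 57343397 to 57367559, minus strand) had 23.6, 46.8, 44.1 and 24.8 CPM on water and 64.2, 86.7 and 138 CPM after DSS. The groups were apart, and the treated libraries were spread widely among themselves. DSS gave a log2 fold change of 1.46 (SE 0.31, edgeR adjusted p = 0.0852; DESeq2 adjusted p = 0.000555).
Cfb (ENSMUSG00000090231, chromosome 17, 34993319 to 34999463, minus strand) had 4.51, 5.50, 1.95 and 0.64 CPM on water and 8.22, 6.44 and 7.36 CPM after DSS. The treated libraries lay close together and the untreated ones did not. Cfb's log2 fold change was 1.16 (SE 0.51, edgeR adjusted p = 0.192), and 0.55 in the libraries with under 20% mitochondrial counts.

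**Figure D2:**
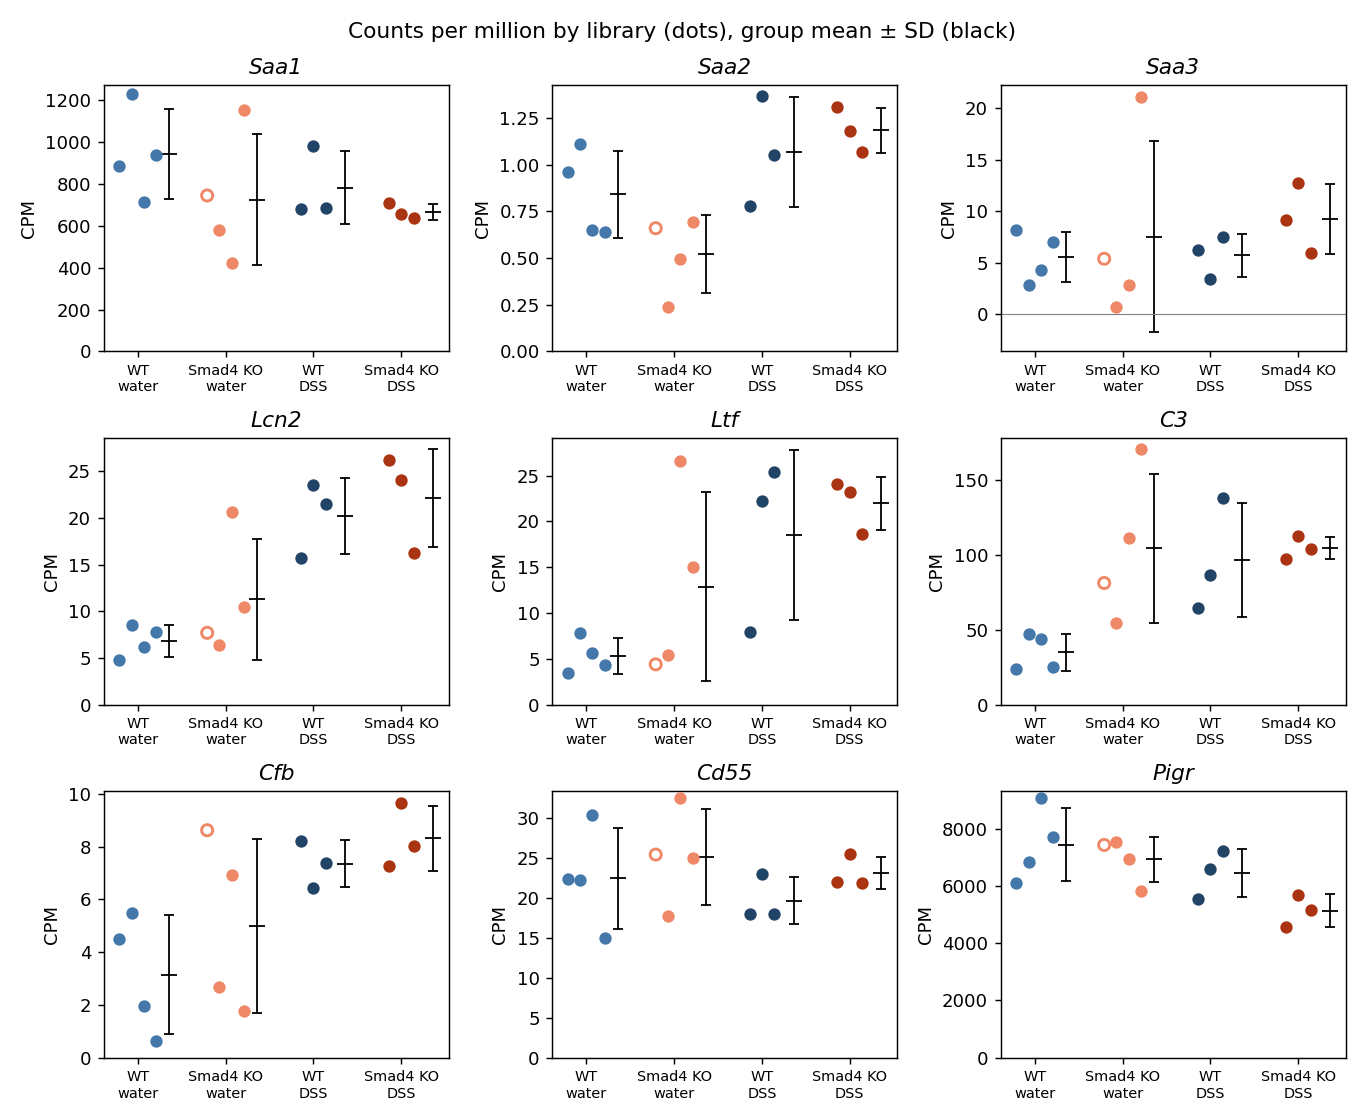
CPM of 9 genes in each library (dots; the open dot is the library labelled Smad4 KO on water, replicate 1), with the group mean ± SD in black (n = 4, 4, 3 and 3). Lcn2, Ltf, C3 and Cfb in WT are higher in every library after DSS than on water, C3 is also higher in every Smad4 KO library on water, and Saa1, Cd55 and Pigr overlap between these groups.

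The direction for Lcn2, Ltf and C3 was the same whichever libraries were left out, and their calls were not. In the libraries with under 20% mitochondrial counts the log2 fold changes were 1.62, 1.73 and 1.46, and in those whose names begin with D (2 on water, 2 after DSS) 1.57, 1.44 and 1.10. Without WT replicate 2 on water all 3 passed edgeR's threshold (adjusted p = 0.0455, 0.049 and 0.0478), and 455 genes in all did. With no filter on low counts the 3 genes passed as well (adjusted p = 0.00559, 0.0198 and 0.0151). In all, Lcn2 passed in 4, Ltf in 3 and C3 in 4 of 19 alternatives, with the highest adjusted p at 0.241, 0.311 and 0.298.

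Lcn2 and Ltf are also classical contents of neutrophil granules, so markers of that cell are given beside them. Of the granule genes, Elane was at 0 in all 14 libraries, and Camp and Mpo had at most 2 counts and Ngp at most 9 counts in any library. In WT, the neutrophil list of 14 genes summed to 56.2 to 73.3 CPM on water and 40.6 to 75.8 CPM after DSS, of which Ly6g gave most. Without Ly6g it summed to 0.33 to 1.24 CPM on water and 1.56 to 3.32 CPM after DSS, with no overlap, and the part of such cells in the Lcn2 and Ltf values of this comparison was not tested. S100a8, a calprotectin subunit of neutrophils that epithelium can also make, had a log2 fold change of 1.55 (SE 0.81, edgeR adjusted p = 0.261). In bulk libraries fewer cells of a type and less RNA per cell cannot be told apart.
In the comparison of genotypes after DSS, S100a8 was 3.21 log2 units higher in Smad4 KO (SE 0.42, edgeR adjusted p = 0.0113). The list without Ly6g summed to 10.04 to 21.2 CPM in Smad4 KO after DSS. Lcn2 differed by 0.14 log2 units (SE 0.20) and Ltf by 0.25 (SE 0.34). The part of neutrophils in the Lcn2 and Ltf values was not tested in this comparison either.

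**Figure D3:**
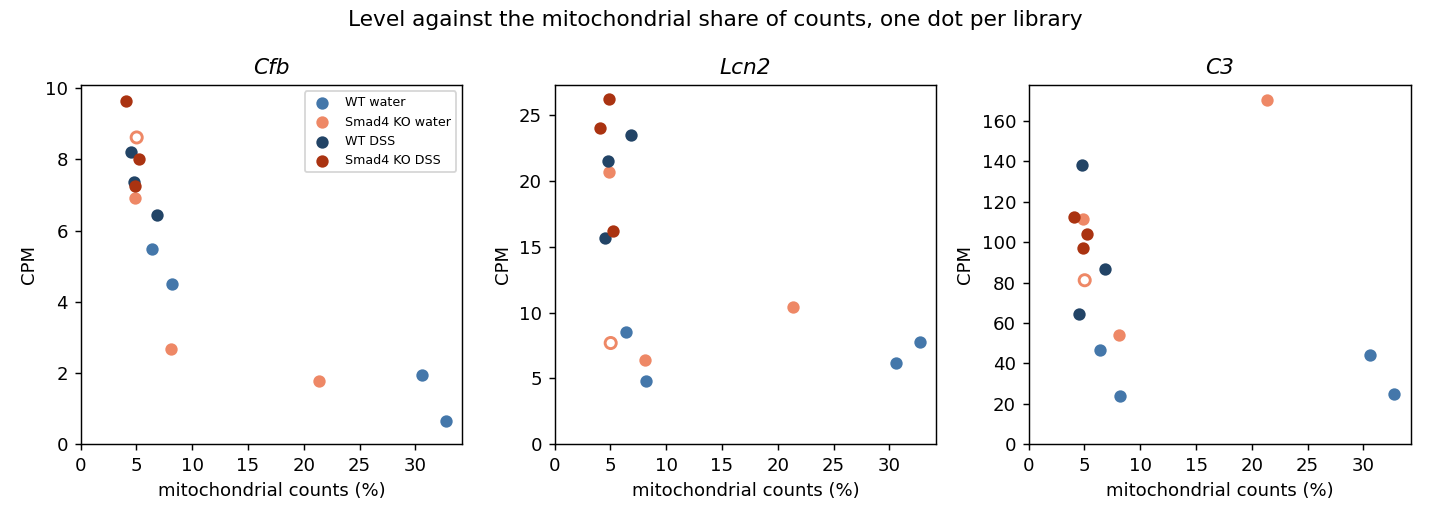
CPM of Cfb, Lcn2 and C3 (vertical axes) against the percentage of counts on mitochondrial genes (horizontal axes), with 1 dot per library coloured by group; the open dot is the library labelled Smad4 KO on water, replicate 1. Cfb is at 0.64 to 1.95 CPM in the 3 libraries with over 20% mitochondrial counts. In the other 11 it is at 2.68 to 9.64 CPM. The WT libraries on water have like levels of Lcn2 and of C3 on either side. Smad4 KO replicate 4 on water, also over 20%, has the highest C3 of all libraries (171 CPM).

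The 3 libraries with the least Cfb were the 3 with over 20% mitochondrial counts, all on water, and Cfb's log2 fold change for DSS in WT was smaller without them, as given above. Cfb also overlaps another annotated gene: 2246 of its 2825 exon bases (79.5%) are shared on the same strand with Gm20547, which had 0 counts in every library. How the counting treated reads on shared bases is not given in the sources used here, and Cfb's level is uncertain for that reason.

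Smad4 KO on water was compared with WT on water to ask what loss of Smad4 does without injury. C3 alone among the 9 genes tested did not overlap between these groups, and it was 2.99-fold higher in Smad4 KO. Groups that did not overlap were seen in 5.33% (higher) and 5.31% (lower) of the 14568 genes tested. C3 had 81.2, 54.2, 111 and 171 CPM in Smad4 KO, and 23.6 to 46.8 CPM in WT. The lowest Smad4 KO library, replicate 2, was close to the highest WT library. The log2 fold change was 1.58 (SE 0.34, edgeR adjusted p = 0.149) with all libraries and 1.68 (SE 0.37, edgeR adjusted p = 0.130) without Smad4 KO replicate 1, where higher and lower groups without overlap were 7.52% and 7.87% of genes.

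No member passed edgeR's threshold on water (0 of 9; 2 at an unadjusted p below 0.05, against 21% of all genes, and 3 without replicate 1, against 18.7%), and 1 of 14568 genes did (0.00686%), Rpl34, a ribosomal protein gene with near-identical copies in the genome, named after its value was seen. DESeq2 called 796 genes and C3 among them (adjusted p = 0.00124). C3 also passed in edgeR without Smad4 KO replicate 4 (log2 fold change 1.24, adjusted p = 0.0311), where 1816 genes did, and in the model of all 14 libraries (adjusted p = 0.0231). In all it passed in 7 of 22 alternatives, with adjusted p of 0.00114 to 0.378 and log2 fold changes of 1.23 to 1.79. With the name prefix as a block C3 did not pass (log2 fold change 1.47, adjusted p = 0.119), while 289 genes did. Within shared prefixes its values were higher in the libraries labelled Smad4 KO. Of those named Z, replicate 1, with Smad4 at the WT level, had 81.2 CPM and replicate 2 had 54.2 CPM. The WT library named Z had 44.1 CPM. The libraries named MP had 171 CPM in Smad4 KO and 24.8 CPM in WT, and both had over 20% mitochondrial counts. In the libraries with under 20%, the log2 fold change of C3 was 1.23 (edgeR adjusted p = 0.109).

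Ltf and Lcn2 were spread widely among the Smad4 KO libraries on water. Ltf had 4.40, 5.42, 26.6 and 15.1 CPM, and Lcn2 had 7.70, 6.37, 20.7 and 10.4 CPM. For both genes replicates 1 and 2 lay within the WT range and replicate 3 was the highest. The neutrophil list without Ly6g summed to 1.01, 0.24, 6.33 and 2.94 CPM in these libraries, with replicate 3 the highest here too, and its part in the values was not tested. The log2 fold changes against WT were 1.28 for Ltf (SE 0.52, edgeR adjusted p = 0.195) and 0.73 for Lcn2 (SE 0.37, edgeR adjusted p = 0.272). Without replicate 3 they were 0.65 and 0.26, and without replicate 1 they were 1.57 and 0.88. Ltf passed in 1 of 22 alternatives, DESeq2 without replicate 1 (adjusted p = 0.0316), and Lcn2 in 0.
Cfb had 8.62, 2.68, 6.91 and 1.76 CPM in Smad4 KO and overlapped WT, with a log2 fold change of 0.63 (SE 0.62), or 0.24 without replicate 1.
Fibroblast markers, like C3, were apart between these groups. Their sum was 17.6 to 19.6 CPM in WT and 25.0 to 55.0 CPM in Smad4 KO on water, with no overlap. Smad4 KO replicate 4 on water had the highest fibroblast sum (55.0 CPM) and the highest C3 (171 CPM) of all libraries. Replicate 1 had the lowest sum of its group and more C3 than replicate 2. Other marker sums of replicate 4 are given below with Saa3. The part of these markers in the C3 result was not tested. After DSS the sum was 17.7 to 19.2 CPM in WT and 30.8 to 38.7 CPM in Smad4 KO, and C3 overlapped between those groups.

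After DSS the 2 genotypes overlapped in every one of these genes. None of the 9 tested passed edgeR's threshold, while 0.801% of 14241 genes passed, and groups lay apart in 10.4% (higher) and 11.7% (lower) of all genes. Of the 9, 1 had an unadjusted p below 0.05, against 15.7% of all genes, and DESeq2, which called 492 genes, called none of them. Lcn2 had 15.7, 23.5 and 21.5 CPM in WT and 26.2, 24.1 and 16.2 CPM in Smad4 KO, a log2 difference of 0.14 with a 95% interval of -0.26 to 0.53. C3 had 64.2 to 138 CPM in WT and 97.2, 112 and 104 CPM in Smad4 KO, a log2 difference of 0.12 with an interval of -0.33 to 0.57. Ltf had 24.1, 23.2 and 18.7 CPM in Smad4 KO, and its interval ran from -0.42 to 0.91. Cfb had 7.27, 9.64 and 8.01 CPM in Smad4 KO, and its interval ran from -0.17 to 0.53. The sign for Lcn2, Ltf and C3 turned when WT replicate 1 after DSS was left out (-0.02, -0.11 and -0.10), so no direction is read from them.

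Pigr and Saa3 were furthest from equal after DSS. Pigr (ENSMUSG00000026417, chromosome 1, 132723261 to 132748826, plus strand) had 5554, 6606 and 7204 CPM in WT and 4557, 5693 and 5170 CPM in Smad4 KO. Only WT replicate 1 fell within the Smad4 KO range. The log2 fold change was -0.32 (SE 0.13, unadjusted p = 0.0361, edgeR adjusted p = 0.285).
Saa3 had 6.25, 3.43 and 7.45 CPM in WT and 9.10, 12.7 and 5.93 CPM in Smad4 KO. The Smad4 KO replicate 3 lay among the WT libraries, and the log2 fold change was 0.70 (SE 0.33, edgeR adjusted p = 0.341).

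In Smad4 KO mice DSS and water were compared to ask whether the response seen in WT was present without Smad4. C3 had like means, 104 ± 49.9 CPM on water (SD, n = 4) and 104 ± 7.60 CPM after DSS (SD, n = 3), a log2 fold change of 0.00 (SE 0.32), or -0.11 (SE 0.35) without replicate 1 on water. Lcn2 was at 11.3 ± 6.48 CPM on water (SD, n = 4) and 22.2 ± 5.27 CPM after DSS (SD, n = 3), overlapping through replicate 3 on water. Its log2 fold change was 0.98 (SE 0.37, edgeR adjusted p = 0.721), or 0.83 (SE 0.39) without replicate 1. Ltf had 0.78 (SE 0.51), or 0.49 (SE 0.45) without replicate 1. Without replicate 3 on water the values of Lcn2 and Ltf were 1.43 and 1.39. Cfb had 0.73 (SE 0.47), or 1.13 (SE 0.46) without replicate 1, when its groups no longer overlapped. Higher and lower groups without overlap were then 7.22% and 6.62% of all genes. The name prefixes differ between these 2 groups, so prefix and treatment cannot be told apart here.

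Of the 9 genes tested, 2 did not overlap between Smad4 KO on water and after DSS, Saa2 and Pigr. Saa2 was higher after DSS, with 0.66, 0.24, 0.49 and 0.69 CPM on water and 1.31, 1.18 and 1.07 CPM after DSS, from 4 to 25 counts per library. Its log2 fold change was 1.17 (SE 0.53, edgeR adjusted p = 0.748), or 1.29 (SE 0.58) without replicate 1 on water. Pigr was lower after DSS, with 7429, 7528, 6924 and 5822 CPM on water and 4557, 5693 and 5170 CPM after DSS, a log2 fold change of -0.43 (SE 0.18, edgeR adjusted p = 0.733), or -0.40 (SE 0.19) without replicate 1 on water. Higher and lower groups without overlap were 4.57% and 4.42% of 14409 genes. No member passed edgeR's threshold (2 at an unadjusted p below 0.05, against 6.54% of all genes, 1 without replicate 1 on water, against 6.53%, and none with DESeq2), and 1 gene did (0.00694%), again Rpl34.

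The difference between the DSS responses of the 2 genotypes was tested itself, in 1 model of all 14 libraries. Both responses have their own controls, and the contrast shares all 4 groups with the comparisons above. C3 had the largest difference: its response was lower in Smad4 KO by 1.46 log2 units (SE 0.49, unadjusted p = 0.00825, edgeR adjusted p = 0.643). For Ltf the response was lower in Smad4 KO by 1.04 (SE 0.73) and for Lcn2 by 0.61 (SE 0.48), with 95% intervals of -2.47 to 0.40 and -1.55 to 0.33 that contain 0. Without Smad4 KO replicate 1 on water the log2 differences were -1.57 (SE 0.50) for C3, -1.32 (SE 0.66) for Ltf and -0.75 (SE 0.48) for Lcn2. Without replicate 3 of that group they were -1.43 for C3, -0.40 for Ltf and -0.13 for Lcn2, so the sizes for Ltf and Lcn2 rest on that library. None of the 9 genes passed the threshold (1 at an unadjusted p below 0.05, against 7.5% of all genes, also 1 without replicate 1, against 8.47%, and none with DESeq2), and 1 of 15127 genes did (0.00661%), Rpl34. With the name prefix as a block the C3 value was -1.0, and those of Ltf and Lcn2 were -0.10 and -0.11.

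**Figure D4:**
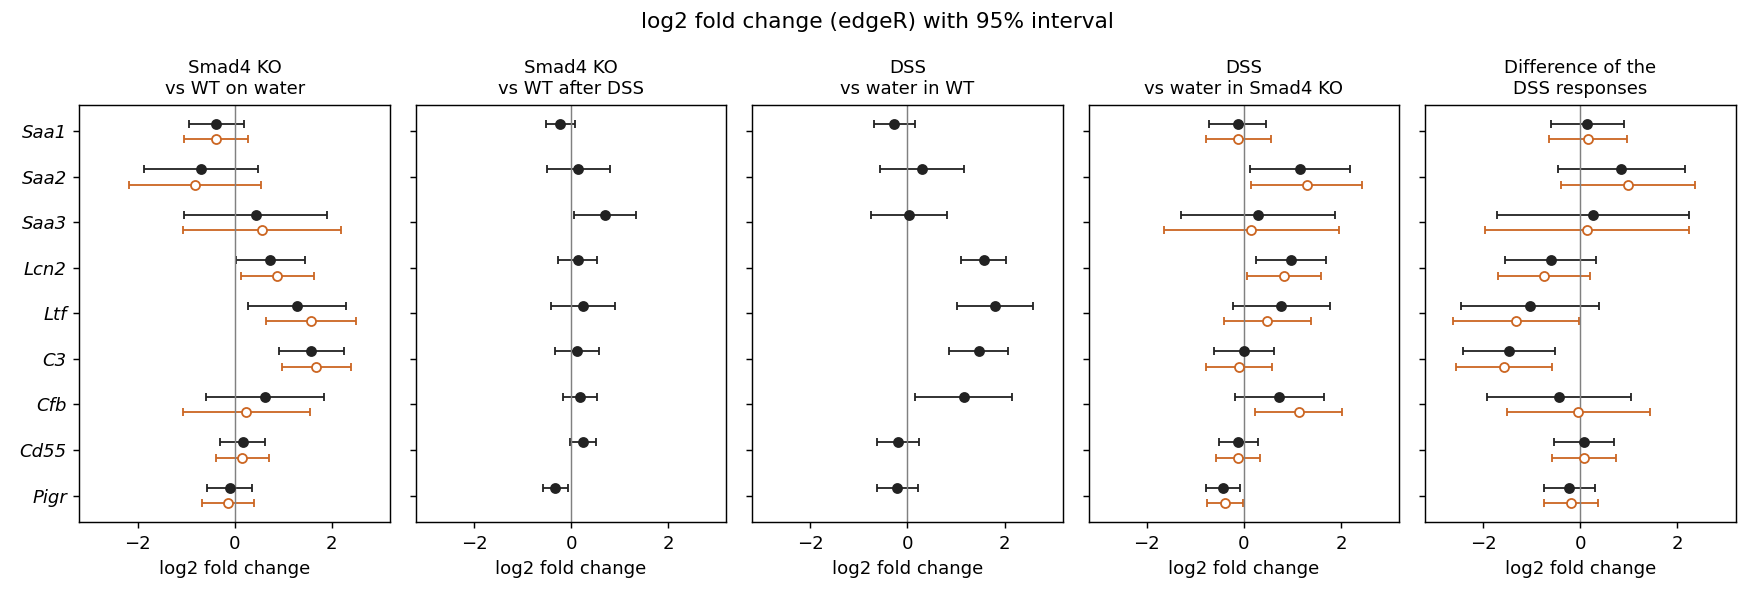
Log2 fold change of 9 genes in the 4 comparisons and in the difference of the DSS responses (horizontal axes). Bars are 95% intervals from normal quantiles, which are narrower than edgeR's test implies. Black dots use all libraries and open orange dots leave out the library labelled Smad4 KO on water, replicate 1. C3 stands at 1.58 for Smad4 KO on water, at 0.12 for Smad4 KO after DSS and at 1.46 for DSS in WT, and at 0.00 for DSS in Smad4 KO.

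Among the serum amyloid genes, all 3 overlapped between water and DSS in WT, and no difference between them and Lcn2, Ltf or C3 was tested. Saa1 had 886, 1230, 711 and 937 CPM in WT on water and 744, 581, 421 and 1152 CPM in Smad4 KO on water. After DSS it had 679, 982 and 685 CPM in WT and 709, 654 and 637 CPM in Smad4 KO. Water and DSS overlapped within each genotype, and so did the genotypes under either treatment, while all Smad4 KO libraries after DSS lay just below all WT libraries on water. The log2 fold change of DSS in WT was -0.27, with a 95% interval of -0.69 to 0.15.
Saa3, which in mice is the form made by macrophages and epithelium in many tissues, had 8.14, 2.79, 4.31 and 6.95 CPM in WT on water. In Smad4 KO on water it had 5.36, 0.66, 2.84 and 21.1 CPM, which holds both the lowest and the highest library of all 14. The log2 fold change of Smad4 KO on water was 0.43 (SE 0.75), 0.56 (SE 0.83) without replicate 1 and -0.90 without replicate 4, so its direction rests on that library. Replicate 4 also had the highest sums of all 14 libraries for fibroblast (55.0 CPM) and T and NK cell markers (38.5 CPM). The same held for B and plasma cell markers (26.2 CPM), squamous markers (7.11 CPM) and the neutrophil list (112.8 CPM, mostly Ly6g). Without Ly6g that list summed to 2.94 CPM, below 6.33 CPM in replicate 3 and 10.04 to 21.2 CPM in Smad4 KO after DSS. Replicate 4 was not the highest for macrophage markers (19.1 CPM, against 21.3 CPM in WT replicate 3 after DSS) or endothelial markers. Its mitochondrial share was 21.4%. The part of all these in its Saa3 value was not tested. DSS in WT gave 0.04 (SE 0.40), or a 95% interval of -0.74 to 0.82.
Saa2 had 0.96, 1.11, 0.65 and 0.64 CPM in WT on water and 0.78, 1.37 and 1.05 CPM after DSS, from 6 to 30 counts per library. DSS in WT gave a log2 fold change of 0.31 (SE 0.44), beside 1.17 in Smad4 KO, where the groups did not overlap. The tested difference of these responses was 0.85 (SE 0.66, edgeR adjusted p = 0.735), with a 95% interval of -0.45 to 2.15 that contains 0.

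Of the inhibitors, Cd55 overlapped between all groups and Cfi was at the limit of detection. Cd55 (ENSMUSG00000026399, chromosome 1, 132335604 to 132359321, minus strand) had 22.4, 22.3, 30.4 and 15.0 CPM in WT on water and 25.5, 17.8, 32.5 and 25.0 CPM in Smad4 KO on water. After DSS it had 18.0, 23.1 and 18.0 CPM in WT and 22.0, 25.5 and 22.0 CPM in Smad4 KO. The 95% intervals of its log2 fold change were -0.31 to 0.63 for Smad4 KO on water, -0.03 to 0.50 for Smad4 KO after DSS and -0.64 to 0.24 for DSS in WT, where scaling by total counts turned the sign (0.02).
Cfi (ENSMUSG00000058952, chromosome 3, 129539655 to 129578246, plus strand) had 9 counts over the 14 libraries, at most 3 in one, and 0 in 10 libraries including all 4 of Smad4 KO on water. A count of 0 allows up to 3 counts, which is at most 0.32 CPM in the shallowest library, and Cfi was below the filter and was not tested. Pigr on water overlapped between the genotypes, with 6111, 6851, 9077 and 7721 CPM in WT, and its log2 fold changes of -0.10 for Smad4 KO on water (-0.14 without replicate 1) and -0.21 for DSS in WT turned sign under scaling by total counts (0.17 and 0.05).

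For 6 of the genes, those with the most similar profile across the 14 libraries were read from Pearson's r of log2 CPM, among 11558 genes with a mean of at least 50 counts, the 10 genes themselves left out. The libraries share the 4 groups and the differences in mitochondrial share, so these values describe the libraries and carry no test. Lcn2 was most like Lbp, the acute phase protein that presents bacterial lipopolysaccharide (r of 0.95), then Lrg1 (0.91) and Wdr1 (0.91), and its r with Ltf was 0.92. C3 was most like Atp6v1b2, Ahnak and Fam102b (0.87, 0.87 and 0.86), and Saa3 like Ctu2, Spryd4 and Gpx7 (0.94, 0.87 and 0.86). Cfb was most like Pgam1, Ptbp1 and Kdm5c (0.98, 0.98 and 0.97). Cd55 was most like Pgam2, D18Ertd653e and Isg20l2 (0.83, 0.80 and 0.78), and Pigr like Emp2, Fblim1 and Foxp1 (0.90, 0.90 and 0.88).

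Most other acute phase genes were not expressed at a testable level in this epithelium. Of 26 matched of a list of 27, 5 to 7 passed the filter in each comparison, and none passed edgeR's threshold in any. The best counted were Cd14, the lipopolysaccharide co-receptor, Steap4, a metalloreductase, and Lbp. Lbp had 12.95, 20.1, 9.60 and 22.6 CPM in WT on water and 79.0, 89.5 and 57.4 CPM after DSS, with no overlap. Its log2 fold change of DSS in WT was 2.21 (SE 0.28, edgeR adjusted p = 0.0606), against 1.57 for Lcn2 in the same libraries. In Smad4 KO on water Lbp had 25.0, 13.2, 77.5 and 33.3 CPM, with replicate 3 highest, as for Lcn2 and Ltf. Steap4 had a log2 fold change of 1.30 (SE 0.61) and Cd14 of 0.51 (SE 0.22) for DSS in WT.

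Among the other complement genes, 12 of 22 components and 11 of 20 regulators and receptors were tested, and none passed edgeR's threshold in any of the 5 comparisons. After DSS in WT the log2 fold change was above 0 for 9 of the 11 regulators (median 0.55) and for 7 of the 12 components (median 0.17), against 48.5% of all genes. In Smad4 KO against WT it was below 0 for 9 of 12 components on water (median -0.31, and -0.35 without replicate 1) and for 10 of 12 after DSS (median -0.34). The regulators were above 0 for 10 of 11 on water (median 0.42, and 8 of 11 with a median of 0.45 without replicate 1) and for 5 of 11 after DSS (median -0.24), against 49.4% and 50.7% of all genes.
Cr1l, the rodent membrane inhibitor of C3 cleavage, had log2 fold changes of 0.50 (SE 0.19) for DSS in WT and 0.46 (SE 0.19) for Smad4 KO on water, or 0.45 (SE 0.22) without replicate 1. C4bp, C1ra, C2 and Fcna overlapped between WT on water and after DSS, with log2 fold changes of 0.09, 0.88, 0.14 and -0.31. C4bp is the fluid-phase inhibitor of the classical pathway, C1ra and C2 are proteases of that pathway, and Fcna is a pattern-recognition lectin.

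**Figure D5:**
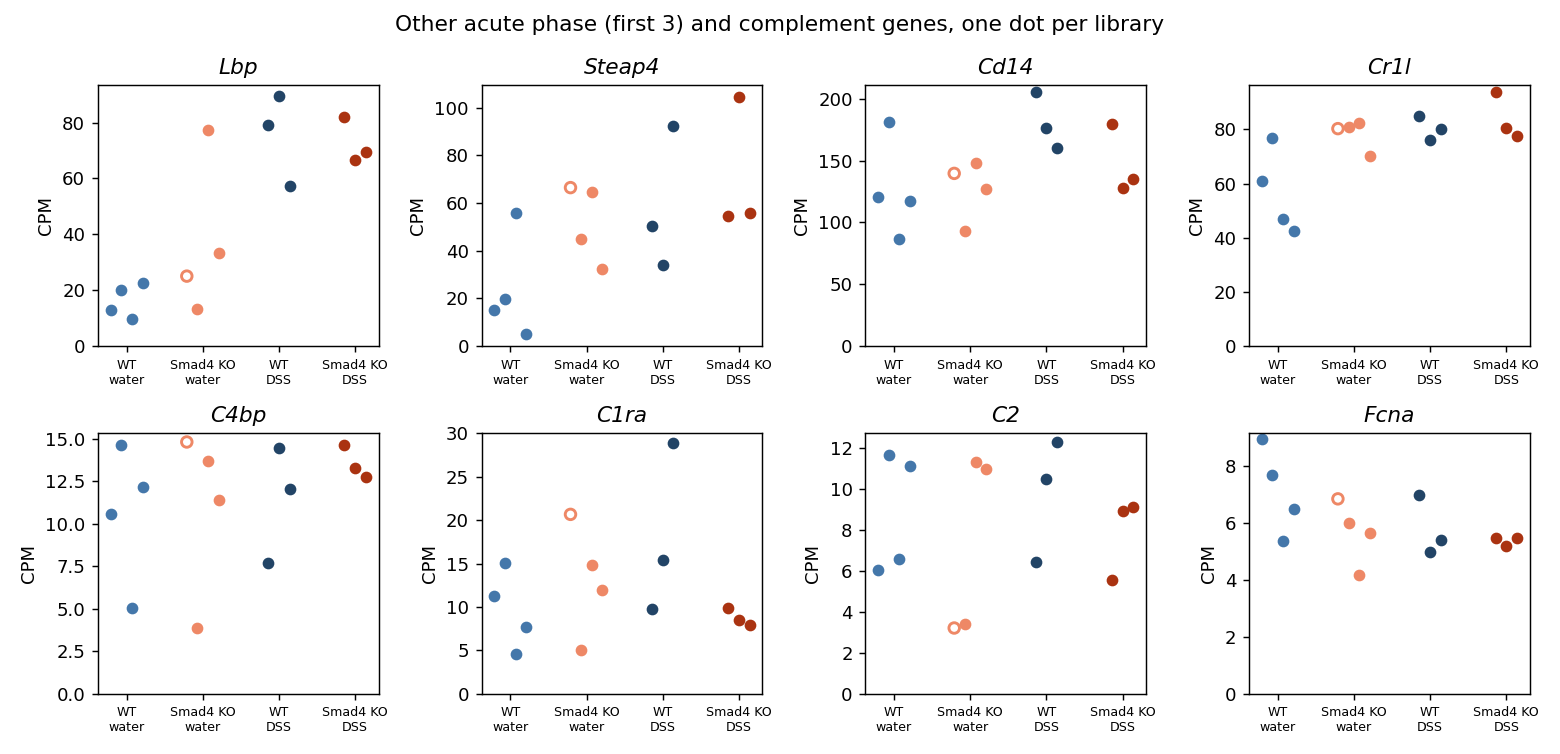
CPM of 3 other acute phase genes (Lbp, Steap4, Cd14) and 5 other complement genes (Cr1l, C4bp, C1ra, C2, Fcna) in each library by group; the open dot is the library labelled Smad4 KO on water, replicate 1. Lbp in WT is higher in every library after DSS than on water, and the other 7 genes overlap between these groups.

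Genes that did pass in the neighbouring lists did so for Smad4 KO against WT after DSS, where the 10 genes did not. In that comparison 0.801% of all 14241 genes tested passed. Of 14 other secreted defence genes tested, 2 passed, both lower: Zg16, a mucus lectin of goblet cells, by 1.10 log2 units (SE 0.11, edgeR adjusted p = 0.00423) and Fcgbp, a mucus protein, by 1.15 (SE 0.12, edgeR adjusted p = 0.00459). Dmbt1 and Lypd8, the other best counted members of that list, had log2 fold changes of 0.41 (SE 0.12) and -0.14 (SE 0.17). Of 24 receptors and factors known to induce acute phase genes, 1 passed, Il17rc, a subunit of the IL-17 receptor, lower by 0.62 (SE 0.10, edgeR adjusted p = 0.0325), while Ifngr1 and Stat3 had 0.12 (SE 0.11) and 0.13 (SE 0.11). Lcn2, a known target of IL-17, stood at 0.14 in the same comparison, and its relation to Il17rc was not tested. Of 6 fibroblast markers tested 3 passed, the collagen genes Col3a1, Col1a1 and Col1a2. They were higher by 4.14, 2.60 and 3.13 log2 units (edgeR adjusted p = 0.0078, 0.0399 and 0.0402). Of 4 neutrophil markers tested 2 passed, S100a8 and S100a9, both higher. Of 13 epithelial markers tested 1 passed, Krt20, a keratin of mature colonocytes, lower by 0.85 (edgeR adjusted p = 0.0324). None of the macrophage, B and plasma cell, T and NK cell, endothelial and squamous markers passed. With each of the 6 libraries left out in turn, Zg16 and Fcgbp passed every time (highest adjusted p = 0.0284 and 0.0378) and S100a8 5 times (highest 0.0601), while Il17rc, Krt20 and S100a9 each passed 1 time (highest 0.131, 0.139 and 0.119). Of the collagen genes, which cleared the filter on low counts in only 3 of these fits, Col3a1 passed in 3, Col1a2 in 1 and Col1a1 in 0. Under the 11 other alternatives Zg16 and Fcgbp passed in 9 (highest adjusted p = 0.933 and 0.53), S100a8 in 8 (highest 0.458), and Il17rc, Krt20 and S100a9 in 6 each (highest 0.999, 0.342 and 0.711). Col3a1, Col1a2 and Col1a1 passed in 8, 7 and 5 of the 10 in which they were tested.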

How the data were processed

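Read alignment by the authors used Hisat2 and mm9, and the deposited table holds their featureCounts output, unnormalized read counts for each gene. The gene annotation and strand setting are not given in the sources used here. All 14 libraries were used, grouped by their labels. Their total counts, 12882827 to 26087231, set the precision. Each pair of groups was fitted alone in edgeR 4.0.16: a gene needed 10 counts or more in 3 of the fitted libraries, scaling was TMM, and the quasi-likelihood test was two-sided with Benjamini-Hochberg adjustment over all genes tested and a threshold of 0.05. The difference of responses used all 14 libraries. Standard errors are the absolute log2 fold change over the square root of F, and 95% intervals use normal quantiles. With so few libraries these intervals are narrower than edgeR's test implies. Saa3 for Smad4 KO after DSS, for example, has an interval of 0.05 to 1.35 and an edgeR unadjusted p of 0.0609. The test was checked on simulated counts. Levels are CPM, and per-length levels use GENCODE M1 exon lengths (37310 of 37680 genes listed). Floors cover counting error only.
DESeq2 1.42.0, other scalings and filters, all libraries in 1 model, replicate and name-prefix blocks and each library left out were the alternatives. Fits without Smad4 KO replicate 1 combined with another choice, and fits of libraries under 20% mitochondrial counts, were added after seeing the data.
The genes and lists were chosen with earlier results of these data known. Named are all 10 genes, those of each list that passed (up to 5 per comparison) and its 3 best counted, with markers given mainly as sums, and for 6 genes the 3 most alike. The values of 1 gene that this rule names are not reported here. Sequences came from GENCODE M1 transcripts and RefSeq (GRCm38.p6).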

Additional observations from a re-analysis of the deposited data

Results flagged for a closer look

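In the library labelled Smad4 KO on water, replicate 1, Smad4 stood at 158.0 CPM, against 35.1 to 46.7 CPM in the other 3 libraries of its group. The gap to the nearest of them was above Dixon's 95% critical value for 4 samples. Of the 20 groups of 4 tested in this way, 1 was marked, and chance marks about 1 in 20. That rate takes no account of Smad4 being the targeted gene. It also takes none of the value lying within the range of WT on water, 118 to 159 CPM. In the same library C3 was at 81.2 CPM, Lcn2 at 7.70, Ltf at 4.40 and Cfb at 8.62 CPM, the last being the highest Cfb value of its group.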

How the results depend on the processing

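Among 931 values of the tested genes under the alternatives, 861 kept their sign and side of the threshold, 19 passed it newly, none lost it and 51 changed sign, the latter with adjusted p of 0.322 or more. With Smad4 KO against WT on water, 1 gene was called in the report's test, and 55 with no filter, 796 with DESeq2, 1276 with 14 libraries in 1 model, 1154 with 13, 289 with the prefix block and 106 under 20% mitochondrial counts, while C3 was the 1 member called with no filter, DESeq2 and either model. Without replicate 1, DESeq2 called 626 genes and 2 members. After DSS the count was 114, and 345 with no filter, 492 with DESeq2, 2 and 8 in the models of 14 and 13 libraries and 45 with the prefix block or prefix D alone. For DSS in WT it was 0, and 2 by total counts, 457 with no filter, 1789 with DESeq2, 2 with the prefix block, 3 within prefix D and 1 under 20% mitochondrial counts, with 3 members called with no filter and by DESeq2. For DSS in Smad4 KO it was 1, and 19, 70, 10 and 5 with no filter, DESeq2 and the 2 models, and 65 with DESeq2 without replicate 1. For the difference it was 1, and 2 with no filter, 8 with DESeq2, 30 under 20% mitochondrial counts and 26 with DESeq2 without replicate 1. The cause of these differences was not tested.
Replicate numbers are shared by the groups, and same-numbered libraries deviated together with r of -0.08 to 0.35, in only 1 of 13 cases best with their own number, so the numbers do not pair the libraries. The replicate block gave 460, 52, 27, 13 and 1 calls in the 5 comparisons, with 1 member on water (C3, adjusted p = 0.0492) and 2 for DSS in WT. Without Smad4 KO replicate 1 it gave 8 on water and 4 for DSS in Smad4 KO. Leaving out each library gave 1 to 1816, 26 to 97, 0 to 455, 1 to 3 and 1 to 6 genes called, and 0 to 1 members on water and 0 to 3 for DSS in WT. The counts on water were 1816 without Smad4 KO replicate 4 and 13 without Smad4 KO replicate 1, those for DSS in WT 455 without WT replicate 2 and 25 without WT replicate 4 on water. After DSS the count was 41, 26 and 29 without Smad4 KO replicates 1, 2 and 3, and 54 and 45 without WT replicates 2 and 3. For DSS in Smad4 KO it was 3 without replicate 3 on water or replicate 1 after DSS, and for the difference 2 and 6 without Smad4 KO replicates 2 and 4 on water.
Log2 fold changes turned sign as follows. On water, Pigr was 0.17 by total counts and 0.18 under 20% mitochondrial counts, Saa1 0.0638 with the prefix block and 0.00282 with it without replicate 1, Cd55 -0.0325 in the latter, and Saa3 -0.35 with the replicate block, -0.25 and -0.22 with the blocks without replicate 1 and -0.87 under 20% mitochondrial counts. For DSS in WT, Cd55 was 0.0234 and Pigr 0.0512 by total counts, and Saa3 -0.00518 with upper-quartile scaling and -0.18 with the prefix block or within prefix D. For DSS in Smad4 KO, C3 was -0.00216 with upper-quartile scaling, -0.00707 with the stricter filter and -0.10 in the model of 13 libraries and with DESeq2 without replicate 1, and Saa1 was 0.24 with the replicate block, 0.39 with it without replicate 1 and 0.20 under 20% mitochondrial counts. For the difference, Cd55 was -0.11 by total counts, Pigr 0.0923 and 0.10 and Saa1 -0.38 and -0.32 with the prefix block, with and without replicate 1.
Leaving out single libraries gave, on water, -0.189 to 0.00591 for Pigr and -0.898 to 0.809 for Saa3. After DSS it gave -0.028 to 0.371 for Saa2, -0.0192 to 0.318 for Lcn2, -0.115 to 0.542 for Ltf and -0.104 to 0.473 for C3. For DSS in WT it gave -0.20 to 0.302 for Saa3, and for DSS in Smad4 KO -0.0847 to 1.63 for Saa3, -0.214 to 0.351 for C3, -0.254 to 0.0151 for Cd55 and -0.32 to 0.2 for Saa1. The difference ran over -0.0395 to 0.456 for Saa1, -0.113 to 1.58 for Saa3 and -0.106 to 0.233 for Cd55.
Depth limits Cfi and Saa2, with at most 3 and 30 counts. Under scaling by total counts the median of all genes was 0.22 on water, 0.21 for DSS in WT and -0.19 for the difference, against -0.00722, -0.0168 and -0.00852 under TMM. A prefix block could not be fitted for DSS in Smad4 KO.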
